A study of Mus musculus with 9 samples.

Results

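The Hox genes of mouse C2C12 cells are described here: the protein-coding genes of the HoxA, HoxB, HoxC and HoxD clusters, chosen by symbol (Hoxa, Hoxb, Hoxc or Hoxd followed by a paralogue number) and by no measured value. There are 39 of them among the 47729 genes of the count table: 11 in HoxA on chromosome 6, 10 in HoxB on chromosome 11, 9 in HoxC on chromosome 15 and 9 in HoxD on chromosome 2 (mm10, GENCODE M21 positions). C2C12 is an established myoblast line derived from mouse thigh muscle, which fuses into myotubes when growth serum is replaced by horse serum. All 9 libraries come from cells exposed to CRISPR-Cas9 guides: a non-target sgRNA control called WT, a Per1 knockout (Per1KO) and a Per2 knockout (Per2KO), each sampled in growth medium with 10% FBS (day 0) and after 3 and 5 days in medium with 5% horse serum. Each genotype and day has 1 library, and the labels do not say whether a knockout is 1 clone or a pool. The labels give whole muscle as the tissue, while the growth protocol describes cell culture.

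Hox genes encode homeodomain transcription factors that give cells along the body axis their regional identity. Genes with the same paralogue number in different clusters descend from 1 ancestral gene, and within a cluster low-numbered genes act towards the head and high-numbered genes towards the tail and the far end of the limbs. Cells of the adult body, cultured fibroblasts and muscle precursors among them, usually keep the Hox pattern of the site they came from, with Polycomb proteins holding unused clusters silent and Trithorax proteins holding used ones open. In the embryo Hoxc10 and Hoxc11 belong to the hindlimb bud rather than the forelimb bud, Hoxa11 to the middle limb segment, Hoxa13 and Hoxd13 to the hand and foot, and Hoxb13 to the tail end of the body, the prostate and the colon.

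The library totals set what could be seen. WT libraries held 5020385 to 6773320 counts and knockout libraries 41997763 to 48051824, and the lane label L002 stands in the WT titles only, so depth, lane label and genotype cannot be told apart. A count of 0 allows up to 0.423 to 0.659 CPM (the count scaled to library size by edgeR with TMM factors) in WT and 0.0590 to 0.0730 CPM in the knockouts. The targeted genes were at 31 to 35.5 CPM (Per1) and 9.73 to 20.4 CPM (Per2) in WT. Per1 was at 20.8 to 32.4 CPM in Per1KO and 16.4 to 32.9 CPM in Per2KO, and Per2 at 3.50 to 9.11 CPM in Per2KO and 6.58 to 10.6 CPM in Per1KO. For both genes the ranges of Per1KO and Per2KO overlapped. The WT range of Per1 overlapped those of both knockouts. The WT range of Per2 overlapped that of Per1KO but lay narrowly above that of Per2KO (lowest WT library 9.73 CPM, highest Per2KO library 9.11 CPM). By day, Per2 was lower in Per2KO than in Per1KO on all 3 days. For Per1 its own knockout was the lower of the pair on day 5 only, and a Cas9 edit need not remove the transcript. The myoblast markers Myf5, Cdh15, Pax7, Myod1 and Des were present in all 9 libraries. Epcam (epithelium) and Adipoq (fat) were listed at 0 in all of them and the leukocyte gene Ptprc had at most 1 count in a library. The whole epithelial, adipocyte and leukocyte lists summed to at most 11.6, 0.878 and 2.20 CPM. Markers of other cell types were not all low, since the fibroblast list summed to 671 to 8565 CPM and the neural list to 1402 to 3082 CPM.

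Members of paralogue group 13 and group 10 are shown by their sequence, because the clearest difference between genotypes lies in 1 gene of group 13 and the most abundant Hox transcripts belong to group 10. Each line is 48 coding bases of the homeobox, 5′ to 3′, from GENCODE M21 transcripts. Capitals mark the codons of the amino acids WFQNRR in the DNA-recognition helix.
Hoxa13: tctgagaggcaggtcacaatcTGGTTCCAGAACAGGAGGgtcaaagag
Hoxb13: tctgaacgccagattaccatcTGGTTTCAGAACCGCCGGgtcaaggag
Hoxc13: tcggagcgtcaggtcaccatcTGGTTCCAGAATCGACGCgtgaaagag
Hoxd13: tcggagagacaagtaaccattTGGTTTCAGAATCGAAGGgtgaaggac
Hoxa10: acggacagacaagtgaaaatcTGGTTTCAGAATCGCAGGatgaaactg
Hoxc10: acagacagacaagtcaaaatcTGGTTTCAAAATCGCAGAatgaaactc
Even in this most conserved stretch Hoxb13 differed from Hoxa13 and from Hoxc13 at 11 of 48 bases each, and from Hoxd13 at 13. Hoxa10 and Hoxc10 differed at 5. Over the whole transcript Hoxb13 shared 0% of its 31-base words with any other gene, and no member shared more than 4.14% with a gene that it does not overlap. Overlaps with neighbours on the genome are the larger limit: 16 of the 39 members share exonic bases with another gene, among them Hoxa11 with the antisense Hoxa11os (35.0% of its exonic bases), Hoxb3 with Hoxb3os (52.9%) and Hoxc10 with Hoxc5 (8.70%), and the kit is not stated to mark strand.

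All 9 libraries drew their Hox transcripts from HoxA and HoxC, with high paralogue numbers in front. The 39 genes together made up 220 to 250 CPM in every library. HoxA held 38.2 to 48.4% of the Hox counts and HoxC 50.6 to 59.2%. HoxB held 0.801 to 1.55% in WT and 3.78 to 5.36% in the knockouts. HoxD had 0 counts in WT, which allows a share of up to 0.185 to 0.266%, and 1 to 7 counts per knockout library, at most 0.0672% (exact 95% interval 0.0270 to 0.139%, counting error only). Paralogue groups 9 to 13 made up 77.3 to 84.8% of the Hox counts, groups 4 to 8 made up 13.4 to 20.9% and groups 1 to 3 made up 1.68 to 2.22%.

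**Figure D1:**
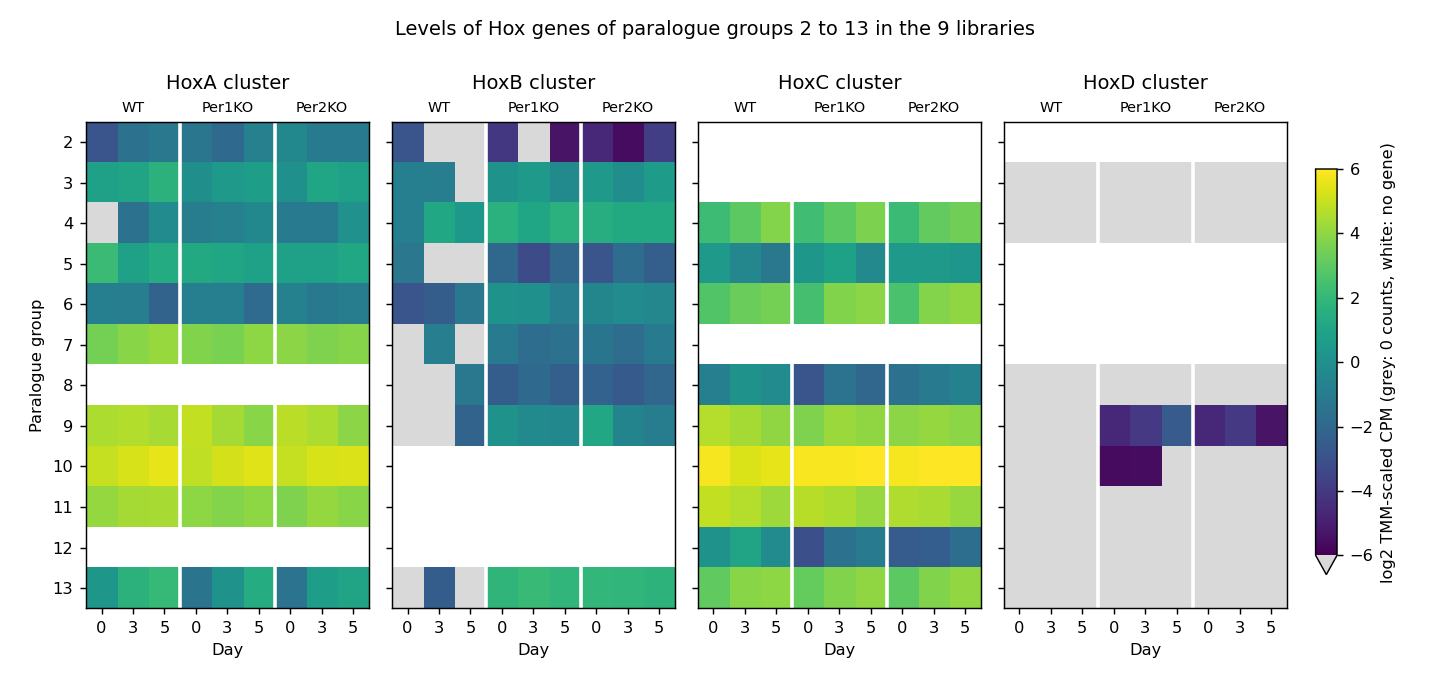
Level of the Hox genes of paralogue groups 2 to 13 (log2 TMM-scaled CPM, colour) by paralogue group (vertical) in the 9 libraries (horizontal, days 0, 3 and 5 of WT, Per1KO and Per2KO) for each cluster; grey marks 0 counts and white a paralogue that the cluster lacks. HoxA and HoxC are bright in groups 9 to 11 in all libraries, HoxD is grey in WT, and the Hoxb13 row is lit in the 6 knockout libraries and near empty in the 3 WT libraries.

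By detection, 31 of the 39 genes had at least 1 count in some library, 18 passed the filter for testing (3 or more of the 9 libraries with 1 CPM or more), and 23 reached 1 CPM in at least 1 library. The 18 tested genes are 8 of HoxA, 3 of HoxB (Hoxb3, Hoxb4, Hoxb13) and 7 of HoxC (Hoxc4, Hoxc5, Hoxc6, Hoxc9, Hoxc10, Hoxc11, Hoxc13). Another 5 reached 1 CPM without passing (Hoxa4, Hoxb6, Hoxb9, Hoxc8, Hoxc12). In 8 more the level stayed under 1 CPM everywhere: Hoxa2, Hoxa6, Hoxb2, Hoxb5, Hoxb7 and Hoxb8 peaked between 0.141 and 0.767 CPM, and Hoxd9 and Hoxd10 at 0.168 and 0.0207 CPM. The last 8 had 0 counts in all 9 libraries, namely Hoxb1 and the HoxD genes Hoxd1, Hoxd3, Hoxd4, Hoxd8, Hoxd11, Hoxd12 and Hoxd13. Of these, Hoxd3 and Hoxd4 share 62.8% and 52.3% of their exonic bases with other annotated genes, whereas Hoxd1, Hoxd8, Hoxd12 and Hoxd13 share none.

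Per kilobase of exon, counting every annotated exon of a gene, Hoxc10 came first with a mean of 29.8 CPM per kb. Its range over the libraries, 20.9 to 34.3, lay above that of every other member. For some members that length far exceeds the longest coding transcript, as for Hoxa9 (5580 against 3226 bases) and Hoxc6 (2408 against 1581). The order below Hoxc10 therefore holds for that length only. Hoxa10 (mean 11.4, range 8.97 to 14.5 CPM per kb) and Hoxc11 (mean 11.3, range 8.79 to 14.7) followed with overlapping ranges. Hoxa11 (mean 7.26) and Hoxc9 (7.19) came next, then Hoxc13 (5.18), Hoxa7 (4.89), Hoxc6 (4.50), Hoxa9 (3.95) and Hoxc4 (3.26), again with overlapping ranges between neighbours. No HoxB gene had a mean above 1.15 CPM per kb, the value of Hoxb13.

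Among the positional partners of this profile, Shox2 (proximal limb) and En1 (ventral limb ectoderm and somites) were present at 43.9 to 54.9 and 15.7 to 21.1 CPM. The forelimb factor Tbx5 had at most 3 counts in a library and its hindlimb counterpart Tbx4 ranged from 0 to 3.73 CPM. Pitx1, the hindlimb homeobox gene, was listed at 0 in all 9 libraries. None of the 8 ParaHox, Cdx and Evx genes, the closest relatives of the Hox genes, passed the filter, and Cdx1 with at most 2 counts was the only one with any.

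WT and knockout cells shared the HoxA and HoxC pattern. Over the 39 genes on the log2 CPM per kb scale, Pearson's r between WT and a knockout on the same day was 0.867 to 0.936 (median 0.913, 6 pairs, Spearman's rho 0.854 to 0.918). Between Per1KO and Per2KO on the same day it was 0.991 to 0.994 (3 pairs), and between days of 1 genotype 0.917 to 0.994 (9 pairs). The points are genes, which are not independent, and genes near 0 in all libraries raise r: over the 23 genes that reached 1 CPM the WT and knockout median was 0.823 and the Per1KO and Per2KO range 0.984 to 0.989. With all libraries thinned to the shallowest total, the WT and knockout range was 0.907 to 0.941 and the Per1KO and Per2KO range 0.973 to 0.984.

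**Figure D2:**
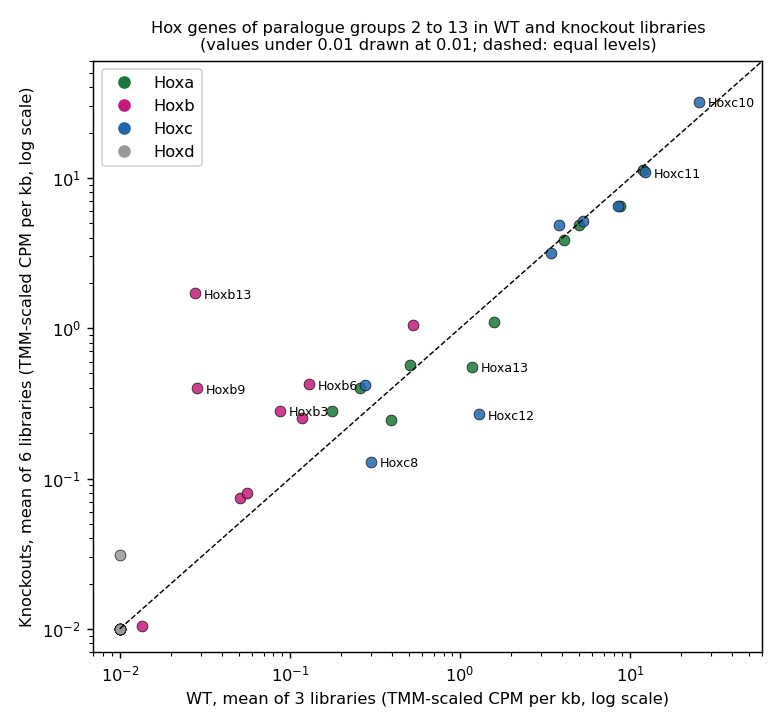
Mean level of the Hox genes of paralogue groups 2 to 13 in the 3 WT libraries (horizontal) and the 6 knockout libraries (vertical), in TMM-scaled CPM per kb on log axes, coloured by cluster, with the dashed line at equal levels. Most HoxA and HoxC genes lie along the line, Hoxb13 and Hoxb9 lie far above it, and Hoxc12, Hoxc8 and Hoxa13 lie below it.

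Hoxb13, a gene of the tail end of the body axis, was all but absent from WT and present in every knockout library. The gene lies at chr11:96194316-96197447 on the plus strand, has 2206 exonic bases and overlaps no other annotated exon. Its counts were 0, 1 and 0 in WT on days 0, 3 and 5, 177, 212 and 155 in Per1KO, and 198, 180 and 138 in Per2KO. The 6 knockout libraries thus lay between 3.36 and 4.38 CPM, and the highest WT library was at 0.182 CPM. Against a WT floor of 3 counts in the library, the knockout level was at least 8.47-fold (Per1KO) and at least 9.20-fold (Per2KO) higher on day 0, and at least 5.64-fold and at least 5.09-fold higher on day 5. The 2-sided 95% counting intervals of these ratios begin lower, at 6.82 and 7.41 on day 0 and at 4.54 and 4.09 on day 5. Against the single WT count of day 3 the ratio was 24.1 (95% counting interval 4.27 to 955) in Per1KO and 20.4 (3.62 to 811) in Per2KO.

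By edgeR's quasi-likelihood test over all 13324 genes, Hoxb13 was higher in Per1KO (adjusted p = 4.26e-04) and in Per2KO (adjusted p = 4.73e-04), in 3 of 3 library pairs each. It passed the filter only through the knockout libraries, where it is high, so these p-values add nothing to the counts above. Hoxb13 did not differ detectably between Per1KO and Per2KO (log2 difference 0.09 ± 0.22 SE, adjusted p = 1.00) and was called on no pair of days, with a log2 difference of -0.08 ± 0.26 between day 5 and day 0.

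The rest of HoxB was also low in WT. Without Hoxb13 the cluster summed to 1.83, 3.46 and 2.42 CPM in WT on days 0, 3 and 5, against 5.72 to 7.92 CPM in the 6 knockout libraries. Hoxb9, the nearest Hox neighbour of Hoxb13, had 0, 0 and 1 counts in WT, 54, 41 and 32 in Per1KO, and 116, 32 and 21 in Per2KO. These are 0.511 to 2.28 CPM in the knockouts, and only on day 0 did both knockouts pass 1 CPM. Hoxb9 was not tested with the filter used. With no filter on low counts its adjusted p was 0.0200 in Per1KO and 0.0145 in Per2KO. It passes a filter of a mean of 0.2 CPM only through the knockouts, so no p under that filter is given.

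The HoxB genes nearer the head end were less uniform. Hoxb4 was at 0.564, 2.19 and 1.32 CPM in WT, at 3.22, 2.09 and 3.21 CPM in Per1KO and at 2.77, 2.46 and 2.43 CPM in Per2KO, so the WT library of day 3 lay within the knockout range. Hoxb3 was at 0.564, 0.546 and 0 CPM in WT, at 1.13, 1.38 and 0.839 CPM in Per1KO and at 1.38, 0.930 and 1.51 CPM in Per2KO. Hoxb6 was at 0.141, 0.182 and 0.439 CPM in WT, at 1.11, 1.01 and 0.552 CPM in Per1KO and at 0.708, 0.868 and 0.730 CPM in Per2KO. For Hoxb3 and Hoxb6 no knockout library was as low as any WT library, but the WT values rest on 0 to 4 counts, and Hoxb3 shares most of its exonic bases with Hoxb3os. Neither Hoxb4 (log2 difference 1.11 ± 0.44 and 0.96 ± 0.44 in Per1KO and Per2KO, adjusted p = 0.117 and 0.163) nor Hoxb3 (1.48 ± 0.65 and 1.67 ± 0.64, adjusted p = 0.148 and 0.108) was called. With all libraries thinned to the shallowest total, Hoxb3 was called in Per2KO (3.32 ± 0.80, adjusted p = 0.0207), the only 1 of 8 alternatives in which it was, with adjusted p up to 0.332 in the others. Hoxb3 reached 1 CPM only in knockout libraries. It passed the filter only through them, so its p-values are no support. The genes beside the cluster on the Hoxb13 side, Ttll6 and Calcoco2, stayed at or under 0.531 CPM in all libraries.

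Hoxa13 went the other way. Its level was 1.27, 3.28 and 4.17 CPM in WT (9, 18 and 19 counts), 0.385, 1.12 and 2.71 CPM in Per1KO and 0.373, 1.63 and 1.99 CPM in Per2KO. On each day both knockouts lay below WT, although the ranges over days overlap. The log2 difference from WT was -1.20 ± 0.33 in both knockouts (adjusted p = 0.0399 and 0.0391, edgeR, lower in 3 of 3 library pairs each). The size of the difference held better than the call. Without each day in turn it was -1.05, -1.05 and -1.62 in Per1KO and -1.04, -1.34 and -1.31 in Per2KO, with adjusted p between 0.0992 and 0.176 from 6 libraries. With only the 6 libraries compared it was -1.24 and -1.22 (adjusted p = 0.0945 and 0.0952). Over the 10 alternatives it was called in 5 for Per1KO (adjusted p from 0.0176 to 0.176) and in 4 for Per2KO (0.0174 to 0.142).

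Hoxc12, at the edge of detection, was higher in WT, and Hoxc8 was called in 1 knockout under 1 filter only. Hoxc12 was at 1.13, 2.0 and 0.878 CPM in WT (8, 11 and 4 counts), at 0.121, 0.351 and 0.504 CPM in Per1KO and at 0.177, 0.186 and 0.316 CPM in Per2KO. All 3 WT libraries lay above all 6 knockout libraries, and the pooled WT level was 5.01 times the pooled knockout level (95% counting interval 2.99 to 8.08). Hoxc8 was at 0.564, 1.09 and 0.878 CPM in WT, at 0.142, 0.372 and 0.240 CPM in Per1KO and at 0.354, 0.475 and 0.608 CPM in Per2KO, where day 5 overlaps WT. Neither passed the filter. With a mean of at least 0.2 CPM as the filter Hoxc12 was lower in both knockouts (adjusted p = 0.0244 and 0.0126, and 0.0206 and 0.00776 with no filter) and Hoxc8 in Per1KO (adjusted p = 0.0347, and 0.0580 with no filter). Hoxc8 was not called in Per2KO under either setting (adjusted p from 0.244 to 0.470).

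Counted over the tested genes, 2 of the 18 were called in Per1KO against WT (Hoxb13 higher, Hoxa13 lower), where 19.3% of all tested genes were called (9.26% higher, 10.1% lower). The same 2 were called in Per2KO against WT, where 19.9% of all genes were (9.31% higher, 10.6% lower). That is 11.1% of the Hox genes in each comparison, and whether it differs from the background was not tested. Their median log2 difference was -0.04 and -0.06 beside -0.02 and -0.01 over all genes. At the thinned depth 3 were called in each knockout. They were Hoxb13 and Hoxb9 (higher) and Hoxa13 (lower) in Per1KO, and Hoxb13, Hoxb9 and Hoxb3 (all higher) in Per2KO. The HoxB genes among them pass the filter only through the knockouts. The share of all genes called at that depth is not given here, so these counts are no support. Both comparisons use the same 3 WT libraries. Between Per1KO and Per2KO 0 of 18 were called by edgeR and 0 by DESeq2, 0 had an unadjusted p under 0.05, and the background was 0% with 88 of 13324 genes at an unadjusted p under 0.05.

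**Figure D3:**
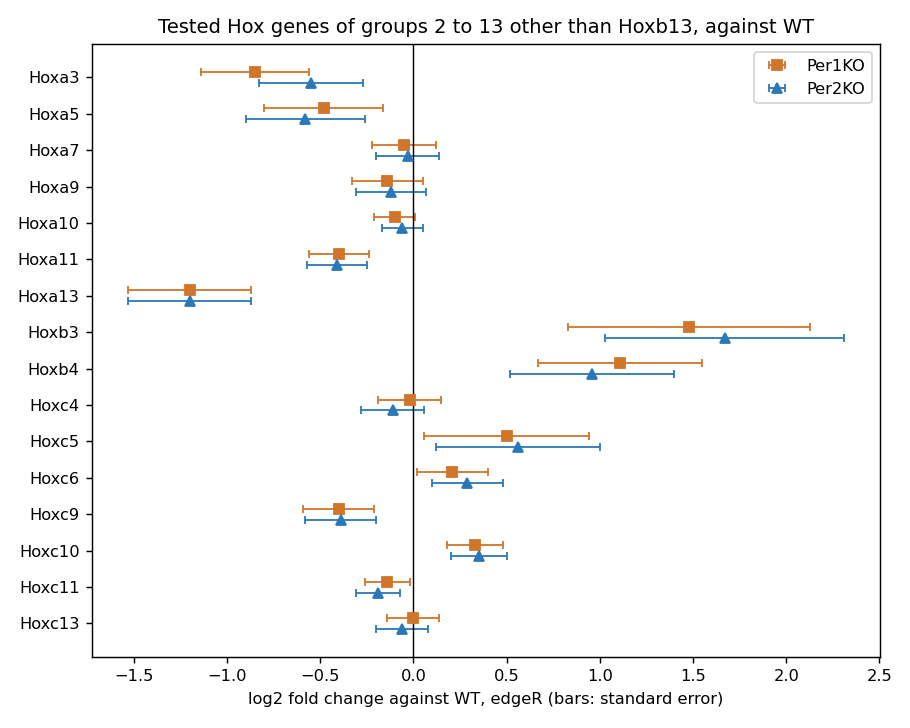
Log2 fold change against WT (edgeR, bars are standard errors) of the tested Hox genes of paralogue groups 2 to 13 other than Hoxb13, with Per1KO as squares and Per2KO as triangles. The symbols of the knockouts lie close together for each gene, Hoxa13 lies at -1.20 in both, and the abundant genes Hoxa7, Hoxa9, Hoxa10, Hoxc4 and Hoxc13 lie near 0.

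The abundant members differed little between genotypes. Hoxc10 was at 57.5, 39.9 and 47.6 CPM in WT, at 59.6, 59.0 and 63.5 CPM in Per1KO and at 56.4, 62.5 and 65.5 CPM in Per2KO. The ranges overlap through day 0, and the log2 differences of 0.33 ± 0.15 and 0.35 ± 0.15 were not called (adjusted p = 0.150 and 0.131). Without day 0 they were 0.47 ± 0.12 and 0.54 ± 0.12 and passed (adjusted p = 0.0425 and 0.0276), the only 1 of 10 alternatives in which they did, with adjusted p up to 0.525 and 0.499 in the others. Hoxa11 was at 17.2, 21.1 and 21.3 CPM in WT, at 15.7, 13.7 and 15.5 CPM in Per1KO and at 13, 17.2 and 14.7 CPM in Per2KO (log2 difference -0.40 ± 0.16 and -0.41 ± 0.16, adjusted p = 0.116 and 0.109). Hoxc9 was at 25.2, 20.9 and 16.0 CPM in WT, at 13, 18.5 and 16.0 CPM in Per1KO and at 15.3, 17.3 and 14.9 CPM in Per2KO (-0.40 ± 0.19 and -0.39 ± 0.19, adjusted p = 0.186 in both). The WT value of Hoxc9 on day 0 stood above all others, and the genotypes overlapped by day 5.

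Hoxa7 was at 11.1, 14.6 and 17.6 CPM in WT, at 13.4, 12.1 and 15.8 CPM in Per1KO and at 14.9, 12.7 and 14.3 CPM in Per2KO. Hoxa5, a gene of neck and chest levels, was at 4.51, 1.82 and 2.63 CPM in WT, at 2.45, 2.17 and 1.82 CPM in Per1KO and at 1.83, 1.84 and 2.31 CPM in Per2KO. Both overlap between genotypes. Hoxc5 was at 1.41, 0.729 and 0.439 CPM in WT, at 1.26, 1.84 and 0.791 CPM in Per1KO and at 1.34, 1.36 and 1.22 CPM in Per2KO. Hoxa4 was at 0, 0.364 and 0.878 CPM in WT, at 0.506, 0.579 and 0.767 CPM in Per1KO and at 0.472, 0.475 and 1.05 CPM in Per2KO. These also overlap between genotypes, and the exons that Hoxc5 shares with the much more abundant Hoxc10 make its count uncertain.

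Single libraries were also compared day by day, with no replicate and no test. At least 2-fold higher in Per1KO than in WT on day 0 were Hoxb4, Hoxb6, Hoxb9 and Hoxb13, and lower were Hoxa13 and Hoxc12, 6 of 21 Hox genes with 1 CPM in either library, where 17.2% of all genes passed 2-fold. On day 3 it was 7 of 21 (background 17.9%) and on day 5 it was 4 of 16 (background 20.0%). In Per2KO it was 7 of 20 on day 0 (background 17.9%), 3 of 19 on day 3 (18.9%) and 5 of 19 on day 5 (20.3%). Of the Hox genes that passed, Hoxb13 did so in all 6 pairs. In each it entered only through the knockout library, where it is high, so its passing is no support. The same holds, among others, for Hoxb3, Hoxb6 and Hoxb9 wherever they passed against WT, and for Hoxb4 on day 0. Hoxc12 and Hoxc8 wherever they passed, and Hoxa13 on day 0, entered only through WT. The genes of the background entered by the same rule. Between the knockouts 1 of 19 passed on day 0, Hoxb9 with 54 counts in Per1KO and 116 in Per2KO (background 2.41%), and 0 of 19 passed on day 3 (background 0.223%) or day 5 (background 0.553%).

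Markers of other cell types moved with genotype. The fibroblast markers Col1a1, Col1a2, Pdgfra, Dcn and Thy1 summed to 2557 to 8565 CPM in WT and 671 to 2085 CPM in the knockouts, with 3 of the 4 tested markers lower in each knockout and Thy1 listed at 0 in all libraries. The fourth, Dcn, was at 51.5, 539 and 602 CPM in WT, at 6.56, 678 and 727 CPM in Per1KO and at 13.7, 710 and 813 CPM in Per2KO, so the knockouts lay below WT on day 0 and above it on days 3 and 5. Col1a1 fell by 3.47 ± 0.22 (Per1KO) and 3.31 ± 0.22 (Per2KO) on the log2 scale (adjusted p = 5.88e-05 and 7.44e-05). The endothelial, leukocyte, epithelial and adipocyte lists summed to at most 11.6 CPM in any library, and the neural list to 1402 to 3082 CPM, nearly all of it Nes, which myoblasts also express. The part of these differences in the Hox values was not tested. In bulk RNA, fewer cells that carry a transcript and less RNA per cell cannot be told apart.

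Several genes of HoxA and HoxC were called during differentiation, and none of the tested HoxB genes was. The day 5 standard errors of Hoxb13, Hoxb4 and Hoxb3 were 0.26, 0.35 and 0.43, so a modest change in them could be missed. Hoxb9, not tested, was lower on day 5 than on day 0 in single libraries of both knockouts (log2 difference -0.48 in Per1KO and -2.03 in Per2KO). On day 5 against day 0, 8 of the 18 tested Hox genes were called, 6 higher and 2 lower, where 46.1% of all tested genes were called (23.2% higher, 22.9% lower). The Hox share is 44.4%, near the background. On day 3 against day 0, 5 were called, all higher, where 35.0% of all genes were called (18.1% higher, 16.9% lower). For day 5 against day 3 edgeR called 0 Hox genes, where 1.79% of all genes were called, and DESeq2 called 0 Hox genes. At an unadjusted p under 0.05 by edgeR there were 4 Hox genes between these days, beside 1975 of all 13324 tested genes. The median log2 difference of the Hox genes between day 5 and day 0 was 0.03 beside -0.01 over all genes.

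Hoxa13, the last gene of HoxA, rose most. From the values above it was higher on day 5 than on day 0 in each genotype, and rose by 2.41 ± 0.32 on the log2 scale over the 9 libraries (5.33-fold, adjusted p = 6.76e-04, higher in 3 of 3 pairs), with 1.74 ± 0.32 already on day 3 (adjusted p = 0.00542). Hoxc13, its paralogue in HoxC, was at 8.46, 14.8 and 15.6 CPM in WT, at 9.05, 13.4 and 15.9 CPM in Per1KO and at 7.92, 13.3 and 16.4 CPM in Per2KO. Hoxc13 rose by 0.92 ± 0.13 on day 5 (1.89-fold, adjusted p = 0.00114), and every library of day 3 and day 5 lay above every library of day 0.

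Hoxc4 and Hoxc6, genes of middle paralogue groups, rose as well. Hoxc4 was at 4.65, 7.83 and 13.8 CPM in WT, at 5.06, 7.81 and 12.5 CPM in Per1KO and at 4.56, 8.56 and 10.5 CPM in Per2KO. Its 3 days did not overlap, and it rose by 1.33 ± 0.16 on day 5 (2.52-fold, adjusted p = 4.72e-04). Hoxc6 was at 6.77, 9.65 and 11.2 CPM in WT, at 5.47, 13.4 and 15.3 CPM in Per1KO and at 5.96, 13.8 and 16.1 CPM in Per2KO, and rose by 1.27 ± 0.19 (2.40-fold, adjusted p = 0.00124). The WT values of Hoxc6 on days 3 and 5 lay below those of both knockouts.

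Hoxa10, the second most abundant member, was at 30.7, 38.4 and 47.4 CPM in WT, at 29.3, 37.1 and 42.0 CPM in Per1KO and at 30.7, 39.3 and 41.2 CPM in Per2KO, and rose by 0.52 ± 0.11 on day 5 (1.43-fold, adjusted p = 0.00574). Hoxa3, a head and neck gene, was at 1.83, 2.0 and 3.29 CPM in WT, at 0.972, 1.34 and 1.61 CPM in Per1KO and at 1.00, 2.09 and 1.82 CPM in Per2KO, and rose by 0.80 ± 0.26 (1.74-fold, adjusted p = 0.0361). For Hoxa10 every library of day 5 lay above every library of day 0, whereas the days of Hoxa3 overlap. With all libraries thinned to the shallowest total the Hoxa3 difference was 0.19 (adjusted p = 0.745), and it was called in 6 of 10 alternatives (adjusted p from 0.0293 to 0.745).

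Hoxa9 and Hoxc11 fell. Hoxa9 was at 22.7, 24.4 and 21.5 CPM in WT, at 29.5, 21 and 14.4 CPM in Per1KO and at 27.2, 23.0 and 14.9 CPM in Per2KO. It fell by 0.70 ± 0.19 on the log2 scale (adjusted p = 0.0165), and the WT values of days 0 and 5 differ by less than their counting intervals. Hoxc11 was at 29.8, 25.7 and 18.9 CPM in WT, at 26.4, 23.2 and 17.8 CPM in Per1KO and at 24.0, 22.5 and 18 CPM in Per2KO, lower on each later day in each genotype, and fell by 0.54 ± 0.12 (adjusted p = 0.00671).

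Leaving out a knockout, which leaves 6 libraries, cost calls more than it moved the differences. Without Per1KO or without Per2KO, 0 of the 5 day 3 calls passed in either case. Their log2 differences were then 1.8 and 1.47 for Hoxa13 (1.74 with all libraries), 0.90 and 0.94 for Hoxc6 (1.06), 0.84 and 0.68 for Hoxc4 (0.76), 0.77 and 0.67 for Hoxc13 (0.70), and 0.34 and 0.33 for Hoxa10 (0.34). Of the 8 day 5 calls 4 passed, namely Hoxa13, Hoxc4, Hoxc6 and Hoxc13, and the other 4 kept differences of 0.85 and 0.77 (Hoxa3), 0.52 and 0.57 (Hoxa10), -0.50 and -0.60 (Hoxa9), and -0.53 and -0.61 (Hoxc11). Without WT the day 3 count was 7, with Hoxa3 and Hoxa9 added, and Hoxa9 was then also lower on day 5 than on day 3 (-0.59 ± 0.11, adjusted p = 0.0243, and up to 0.993 in the other alternatives). All 5 myotube markers (Ckm, Myog, Myh3, Tnnt3, Acta1) rose on days 3 and 5, from a sum of 530 CPM in WT and 9.69 to 23.0 CPM in the knockouts on day 0 to 17089 CPM in WT and 7941 to 10339 CPM in the knockouts on day 5. Markers of other cell types moved with day too. Of the 4 tested fibroblast markers 3 were higher on day 5 than on day 0 (Col1a1, Col1a2 and Dcn, the last by 5.25 ± 0.71, adjusted p = 9.02e-04), as were Cdh1 of epithelium (2.23 ± 0.22, adjusted p = 1.58e-04, at most 11.6 CPM), Tek of endothelium (1.56 ± 0.47, adjusted p = 0.0273, at most 3.60 CPM) and Nes (0.66 ± 0.20, adjusted p = 0.0271). The neural marker Tubb3 fell by 1.55 ± 0.33 (adjusted p = 0.00730). The part of all these markers in the Hox values was not tested.

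**Figure D4:**
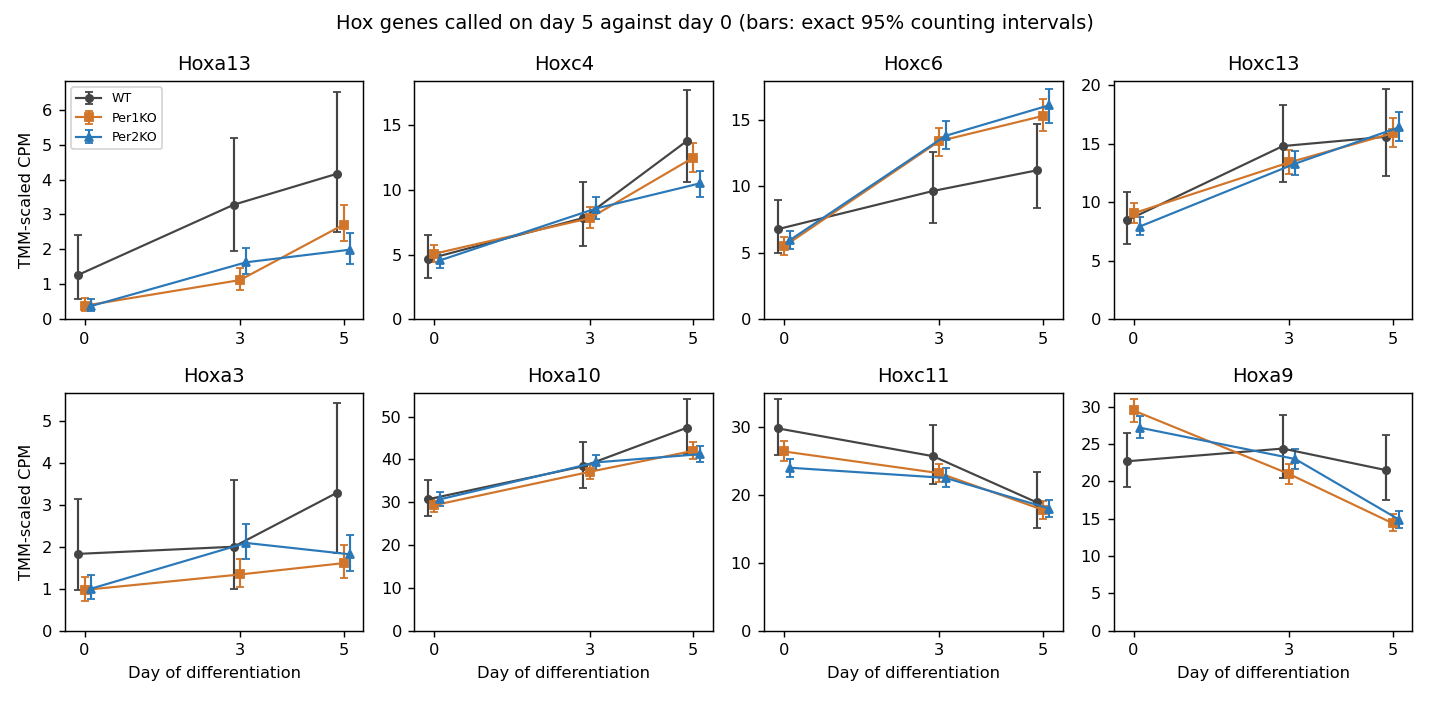
TMM-scaled CPM (vertical, each panel from 0) of the 8 Hox genes called on day 5 against day 0, by day of differentiation (horizontal), for WT (circles), Per1KO (squares) and Per2KO (triangles), 1 library per point, with exact 95% counting intervals. Hoxa13, Hoxc4, Hoxc6, Hoxc13, Hoxa3 and Hoxa10 climb and Hoxc11 and Hoxa9 decline, and the WT intervals are the widest.

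Through these changes the middle paralogue groups gained share. Groups 4 to 8 held 13.4, 16.8 and 20.1% of the Hox counts in WT on days 0, 3 and 5, 15.1, 17.7 and 20.9% in Per1KO, and 15.5, 17.5 and 20.4% in Per2KO. The exact 95% intervals of day 0 and day 5 did not overlap in any genotype (11.8 to 15.2% against 17.8 to 22.6% in WT), though they cover counting error only. Groups 9 to 13 went from 82.2 to 84.8% on day 0 to 77.3 to 78.2% on day 5, but their summed level was not lower. It was 194, 191 and 194 CPM in WT, 188, 193 and 193 CPM in Per1KO and 181, 201 and 192 CPM in Per2KO. The summed level of groups 4 to 8 went from 30.7 to 49.8 CPM in WT, from 34.1 to 52.1 CPM in Per1KO and from 34.3 to 50.6 CPM in Per2KO between day 0 and day 5. HoxD had at most 7 counts in any library on any day.

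**Figure D5:**
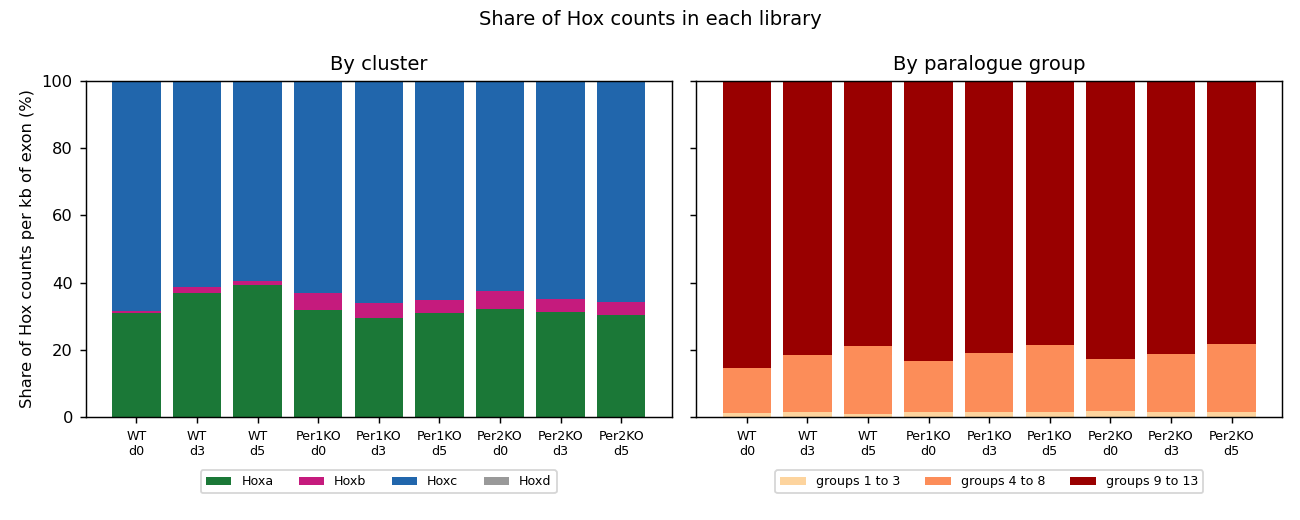
Share of the Hox counts per kb of exon (percent, each bar sums to 100) in the 9 libraries, by cluster on the left and by paralogue group on the right. HoxC and HoxA fill almost the whole bar, the HoxB band is thin in WT and 3.78 to 5.38% in the knockouts, HoxD is not visible, and groups 4 to 8 widen from day 0 to day 5 in all 3 genotypes.

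Whether WT and knockouts responded differently to differentiation was tested as an interaction between genotype (WT or knockout) and stage (day 0 or later). By edgeR 0 of the 18 Hox genes were called, where 4.95% of all tested genes were, and DESeq2 called 0 Hox genes. At an unadjusted p under 0.05 by edgeR there were 6 Hox genes, beside 3131 of all 13324 tested genes. The genes nearest to a call were Hoxc6 (log2 difference in response 0.74 ± 0.25, larger in the knockouts, adjusted p = 0.130), Hoxc9 (0.69 ± 0.24, adjusted p = 0.137), Hoxc10 (0.51 ± 0.18, adjusted p = 0.140) and Hoxa9 (-0.67 ± 0.24, adjusted p = 0.157). In single libraries with no test, 5 of 17 Hox genes moved at least 2-fold from day 0 to day 5 in WT (background 25.7%), 4 of 20 in Per1KO (27.2%) and 6 of 20 in Per2KO (25.5%). Hoxa13 and Hoxc4 did so in all 3 genotypes.

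Start-site sequence is shown for the gene that rose most, for one that fell and for a silent paralogue of the first, because all 3 come from clusters described above and differ in CpG content. Each is the 250 bases before the RefSeq start (GRCm38.p6), 5′ to 3′ on the gene's strand, with each CG dinucleotide in capitals.
Hoxa13, chr6:52260881-52261130, minus strand: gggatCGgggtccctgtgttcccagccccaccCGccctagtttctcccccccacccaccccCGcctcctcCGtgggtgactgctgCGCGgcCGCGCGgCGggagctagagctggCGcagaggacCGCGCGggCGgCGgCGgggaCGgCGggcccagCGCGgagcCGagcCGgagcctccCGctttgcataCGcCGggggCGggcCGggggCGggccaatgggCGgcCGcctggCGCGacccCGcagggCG
Hoxa9, chr6:52227371-52227620, minus strand: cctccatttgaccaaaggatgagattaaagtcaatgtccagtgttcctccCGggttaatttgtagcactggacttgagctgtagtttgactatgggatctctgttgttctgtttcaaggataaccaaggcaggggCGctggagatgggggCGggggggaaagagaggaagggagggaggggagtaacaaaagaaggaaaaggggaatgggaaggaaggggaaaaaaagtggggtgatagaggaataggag
Hoxd13, chr2:74667975-74668224, plus strand: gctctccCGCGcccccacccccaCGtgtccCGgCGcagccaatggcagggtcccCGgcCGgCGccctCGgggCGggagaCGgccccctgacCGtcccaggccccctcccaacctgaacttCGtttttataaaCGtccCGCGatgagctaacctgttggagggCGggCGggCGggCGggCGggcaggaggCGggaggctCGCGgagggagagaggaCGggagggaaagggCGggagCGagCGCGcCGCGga
Hoxa13 held 35 CG dinucleotides and 2.98% of all 32817 RefSeq start regions of this length held as many or more. Hoxd13 held 31 (5.2% held as many or more) and Hoxa9 held 3 (70.9%). The Hoxa9 region lies inside the GENCODE M21 gene (chr6:52223100-52231089), so its value belongs to that RefSeq start only. Starts of 1 gene can differ, as the 2 regions of Hoxa10 held 20 and 7. Over the 24 start regions of 22 Hox genes in the table the median was 12.5, beside 6 over all. CpG-dense starts thus occur both in a gene that rose and in a gene with 0 counts. No methylation or chromatin measurement was made in this series.

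The proteins that bind DNA beside Hox proteins were expressed throughout. Of the 9 PBC and MEIS genes 8 were tested, and on day 5 against day 0 2 rose and 3 fell, where 46.1% of all genes were called. Pknox2 was at 17.2, 54.6 and 57.5 CPM in WT, at 8.28, 26.7 and 22.7 CPM in Per1KO and at 8.31, 27.2 and 22.1 CPM in Per2KO. It rose by 1.53 ± 0.13 on day 5 (adjusted p = 7.25e-05) and was lower in both knockouts by 1.15 ± 0.13 on the log2 scale (log2 difference -1.15, adjusted p = 8.03e-04 and 8.21e-04). Meis2, a marker of proximal limb, fell by 1.28 ± 0.27 on day 5 (adjusted p = 0.00673), and Meis3 was higher in Per1KO (0.60 ± 0.17, adjusted p = 0.0460). Called against WT were 2 members in Per1KO (Meis3, Pknox2) and 1 in Per2KO (Pknox2), beside 19.3% and 19.9% of all genes.

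All 32 Polycomb genes were tested. On day 5 against day 0, 3 were higher and 8 lower, with a list median of -0.16 beside -0.01 over all genes, of which 23.2% were higher and 22.9% lower. Ezh2, the main H3K27 methyltransferase of dividing cells, was at 70.4, 35.7 and 21.1 CPM in WT, at 107, 36.9 and 24.8 CPM in Per1KO and at 84.0, 38.9 and 25.0 CPM in Per2KO, and fell by 1.87 ± 0.14 (adjusted p = 4.25e-05). Ezh1, its counterpart in resting cells, rose by 1.19 ± 0.18 (adjusted p = 0.00127). Against WT, Per1KO had 3 higher and 3 lower members, and Per2KO had 2 higher and 3 lower, beside 19.3% and 19.9% of all genes called. Jarid2, an accessory subunit of the same complex, fell by 0.69 ± 0.18 and 0.73 ± 0.18 (adjusted p = 0.0310 and 0.0251), and Epop was higher in Per1KO (1.56 ± 0.40, adjusted p = 0.0320). Bmi1 was called higher in both knockouts, in Per2KO by 0.45 ± 0.11 (adjusted p = 0.0259).

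Of the 17 Trithorax genes and H3K27 demethylases, all tested, 0 were higher and 5 lower on day 5 against day 0, beside 23.2% and 22.9% of all genes. Psip1, a chromatin tether of the MLL complex, fell by 1.06 ± 0.11 (adjusted p = 2.08e-04), and it was the only member called against WT, higher by 0.55 ± 0.11 in both knockouts (adjusted p = 0.0123 and 0.0116). Of 19 cluster transcripts that are not protein-coding, 17 are in the table and 3 passed the filter. Hoxa11os, the antisense partner of Hoxa11, fell by 0.58 ± 0.17 on day 5 (adjusted p = 0.0231), from 16.7 to 19.0 CPM on day 0 to 10.6 to 14.3 CPM on day 5. Hotair, the noncoding RNA between Hoxc11 and Hoxc12, was at 2.0 to 3.24 CPM in WT and 3.95 to 5.73 CPM in the knockouts and was not called.

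Retinoic acid, a classical inducer of Hox genes, has 18 listed genes for its synthesis, breakdown and receptors, of which 12 were tested. In each knockout 0 were higher and 4 lower (Crabp1, Crabp2, Aldh1a3, Rara), beside 10.1% (Per1KO) and 10.6% (Per2KO) of all genes lower. Crabp1, a binding protein, was at 2.68, 1.82 and 2.63 CPM in WT and at 0.0202 to 0.165 CPM in the knockouts. It passed the filter only through WT, where it is high, so it had to differ and its call is no support. Aldh1a3, which makes retinoic acid, rose by 3.06 ± 0.42 on day 5 (adjusted p = 7.88e-04), to 22.6 CPM in WT and 3.99 to 4.87 CPM in the knockouts, while the receptor Rarg fell by 0.82 ± 0.17 (adjusted p = 0.00545).

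Of 30 other positional genes of limb, girdle and trunk, 14 were tested. In each knockout 0 were higher and 2 lower (Tbx3, Irx3), and on day 5 against day 0, 3 were higher and 1 lower, beside 19.3%, 19.9% and 46.1% of all genes called. Irx3, a limb-bud gene, was at 17.3 to 22.6 CPM in WT and 5.93 to 10.5 CPM in the knockouts, lower by log2 -1.22 ± 0.17 and -1.34 ± 0.17 (adjusted p = 0.00219 and 0.00144). Tbx15, a girdle and limb gene, was at 34.7, 111 and 184 CPM in WT, at 34.5, 93.7 and 188 CPM in Per1KO and at 28.8, 90.4 and 151 CPM in Per2KO, and rose by 2.42 ± 0.11 (adjusted p = 7.61e-06). Twist2 fell by 2.32 ± 0.29 (adjusted p = 5.43e-04). Of the 10 homeobox genes with myogenic roles outside the clusters, 6 were tested. Pax7, which marks muscle stem cells, fell by 0.91 ± 0.21 (Per1KO) and 1.30 ± 0.21 (Per2KO) on the log2 scale (adjusted p = 0.0217 and 0.00498).

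Among 17 genes that flank the clusters, 16 are in the table and 11 were tested, with 1 higher and 1 lower in each knockout and 3 higher on day 5, beside 19.3%, 19.9% and 46.1% of all genes called. Atp5g2, beside HoxC, was at 42.6 to 67.9 CPM in WT and 1.65 to 5.07 CPM in the knockouts (log2 -4.66 ± 0.36 and -4.32 ± 0.35, adjusted p = 1.52e-04 and 2.14e-04). Calcoco1, on the same side of HoxC, rose by 1.93 ± 0.33 on day 5 (adjusted p = 0.00264). Hibadh, beside HoxA, was higher in both knockouts by 0.40 ± 0.11 and 0.38 ± 0.11 (adjusted p = 0.0414 and 0.0453).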

How the data were processed

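Whole-number read counts per Ensembl gene were used as the authors deposited them. Per the labels' protocols, poly(A) RNA was made into TruSeq libraries and read from 1 end on a HiSeq instrument. The submitters' processing notes name CASAVA 1.8, HISAT2 2.1.0 and mm10. The counting program, annotation and use of strand are not given in the sources used here. Names, exon lengths and positions came from GENCODE M21 (GRCm38), which matched 47310 of 47729 genes, and start regions from RefSeq (GRCm38.p6), which held 22 of the 39 Hox genes.

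The 13324 genes that reached 1 CPM in 3 or more of the 9 libraries were tested with edgeR 4.0.16 (quasi-likelihood, TMM scaling, R 4.3.3), called at a Benjamini-Hochberg adjusted p under 0.05. An additive model of genotype and day over all 9 libraries left 4 residual degrees of freedom, and the interaction model 3. Its error is the departure from additivity, since each genotype and day has 1 library, so a p speaks of these cell populations only. Standard errors come from the F statistic. Single library pairs used a prior count of 2 and a 2-fold threshold. Counting intervals are exact and 2-sided at 95%, the floor for a count of 0 is 3 counts, and both cover counting error only, since reads carry no molecular identifiers. The fit was also run on simulated counts with no day effect and with changes in Per1KO alone. The real libraries differ widely by day and genotype, so no result here rests on that run.

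Every Hox gene that reached 1 CPM in a library was given by library, and results withheld for evaluation are not reported here. From each other list, the called members with the largest rise and largest fall in Per1KO, in Per2KO and on day 5 were named, with the counts of all called members. The members and lists were chosen with earlier results of these data known. Alternatives were other scalings (RLE, TMM over protein-coding genes), other filters, DESeq2 1.42.0, thinning to 5020385 counts, and leaving out a day, a genotype or the libraries outside the comparison.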

Additional observations from a re-analysis of the deposited data

Results flagged for a closer look

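By the interaction test of the response to differentiation in WT and knockouts, 0 of 18 Hox genes were called, and 0 by DESeq2. At an unadjusted p under 0.05 by edgeR there were 6 Hox genes, beside 3131 of all 13324 tested genes. Of the 121 tested genes of the other lists 14 were called, beside 4.95% of all genes, and whether the lists differ from the Hox genes was not tested. Among the partners of Hox proteins, the difference in log2 response (knockouts minus WT, edgeR) was 1.17 ± 0.25 for Meis2 (adjusted p = 0.0437) and 1.13 ± 0.21 for Pknox1 (adjusted p = 0.0303). Meis2 went from 155 CPM on day 0 to 44.8 and 40.4 CPM in WT, from 100 to 86.8 and 63.7 CPM in Per1KO, and from 158 to 95.1 and 70.2 CPM in Per2KO. Pknox1 went from 64.7 to 23.3 and 25.9 CPM in WT and stayed between 34.4 and 48.4 CPM in the knockouts.

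Of the retinoic acid genes, the difference was 6.35 ± 0.75 for Stra6, the retinol receptor (adjusted p = 0.0101), 3.54 ± 0.60 for Rarb (adjusted p = 0.0247), 1.08 ± 0.21 for Rxra (adjusted p = 0.0345) and -1.44 ± 0.29 for Crabp2 (adjusted p = 0.0380). Stra6 was at 13.5, 0 and 0.439 CPM in WT on days 0, 3 and 5 and at 5.58 to 10.6 CPM in the 6 knockout libraries. Since its WT library of day 3 is at 0, its fitted difference depends on the prior count.

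The other genes were Prrx1 (0.79), a limb mesenchyme gene, Calcoco1 (1.48), a HoxC neighbour, Dcn (2.76), a matrix gene, and the myotube markers Tnnt3 (2.65), Myog (3.14), Acta1 (4.10), Ckm (4.97) and Myh3 (5.27), each as a difference in log2 response. The myotube markers started lower in the knockouts on day 0, where Myh3 was at 140 CPM in WT, 2.51 CPM in Per1KO and 0.786 CPM in Per2KO. Depth and the lane label separate WT from the knockouts in all of these comparisons, and their part was not tested.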

How the results depend on the processing

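No result reversed. The count of Hox genes called against WT was 2 in each knockout. It was 5 (Per1KO) and 4 (Per2KO) with a mean of 0.2 CPM as the filter, which tests more low genes. Those added were Hoxb9 and Hoxc12 in both knockouts and Hoxc8 in Per1KO. Hoxb9 passes that filter only through the knockouts, so its calls are no support. With only the 6 libraries compared the count was 1 in each, and it was 1 to 2 when each day was left out. For day 3 against day 0 it was 5, and 0 to 7 when each genotype was left out (0 without Per1KO, 0 without Per2KO, 7 without WT). For day 5 against day 0 it was 8, and 4 to 8 (4 without either knockout). For day 5 against day 3 it was 0, and 0 to 1 (1 without WT). Fits without a day or a genotype rest on 6 libraries in place of 9. The share of all genes called under each alternative is not given here, so these counts are not set against a background. The cause of these differences was not tested further. The median profile correlation of WT and knockouts was 0.823 over the 23 genes with 1 CPM in a library, an alternative chosen after seeing the data. The median share of HoxA and HoxC per kb was 96.1%, and 92.9% without genes with exonic overlap. Of 170 alternative fits of the 17 Hox calls, 134 kept direction and call and 36 kept direction only. Among the 134 are all 10 Hoxb13 fits of each knockout. Those are no support, because Hoxb13 passes the filter only through the knockouts. The shallow WT libraries limit HoxB and HoxD most. Libraries were paired by day through the day term of the model. No further pairing was possible because each genotype and day has 1 library with no replicate number.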
